A study of Rattus norvegicus with 6 samples.

Results

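Imprinted genes are expressed from a single parental allele, which is chosen by methylation laid down in the germ line. A group of them is known as an imprinted growth network, because its members are abundant in fetal and neonatal tissue and are turned down together in many organs as growth slows after birth. Paternally expressed imprinted genes tend to favor growth and maternally expressed ones to restrain it. The list examined here held 9 such genes (Dlk1, Mest, Peg3, Plagl1, Cdkn1c, Grb10, Meg3, H19 and Ndn), taken from the table by symbol. Of the 9, 7 had a row among the 17833 genes of the table, and all 7 were expressed highly enough to be tested. Meg3 and H19, both long noncoding RNAs, were not analysed here.

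The PVs (pulmonary veins) of 6 wild-type Sprague-Dawley rat pups had been profiled by bulk RNA-seq, 3 after bilateral banding of these veins (BPVB) and 3 after a sham operation. Both groups underwent cooling anesthesia and an open-chest operation at postnatal day 1, in the sham group with the suture placed and taken out again and no constriction left behind. Tissue was the PV of the right upper lobe, taken at postnatal day 21. The values were FPKM, read fragments scaled by gene length and library depth. Library totals worked out from these values were between 23439506 and 29725808 fragments. The comparison asks whether genes of the postnatal growth program differ in expression between the banded vein and the sham-operated vein at that age.

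Of the 7 genes, Mest had the largest difference that passed the test, at 1.81 times the sham level in the BPVB group. Peg3 and Cdkn1c were also higher, by small amounts that lost their call in many of the alternative fits. With an adjusted p under 0.05 (limma on log2(FPKM + 0.5), Benjamini-Hochberg adjustment over all genes), 3 of the 7 were higher and 0 were lower, and 4 did not pass. Of the 15150 genes tested, 31.5% passed the same threshold, 17.2% higher and 14.3% lower in the BPVB group. The split depended on scaling. After median of ratios scaling 1 member was higher (Mest) and 2 were lower (Ndn and Grb10), beside 2362 higher and 2454 lower among all genes, and after quantile normalization the same 3 members passed, beside 2354 higher and 2430 lower among all genes. At an unadjusted p under 0.05, 6 of the 7 genes passed, as did 42% of all genes tested, with Ndn and Grb10 among the 6 on the lower side. On log2(FPKM + 0.5), none of the 7 reached the DEG thresholds of the study (an absolute log2 fold change above 1 beside the adjusted p), which 3.27% of all genes did. The study applied these thresholds to DESeq2 results, a test not run here, and the added 0.5 lowers the fold change of low genes. The median log2 fold change of the 7 was 0.21, and that of all genes tested was 0.02.

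**Figure D1:**
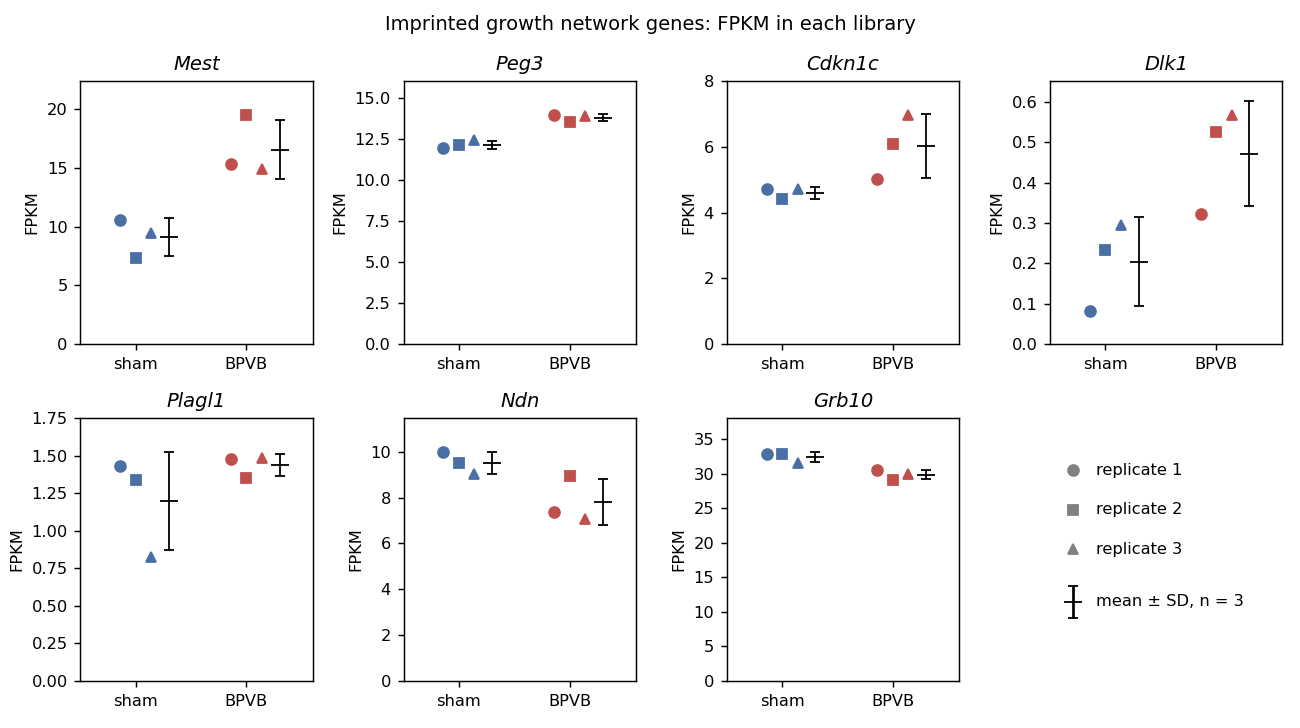
FPKM of the 7 imprinted growth network genes in each of the 6 libraries (vertical axes start at 0 and differ between genes), with the mean and SD of each group of 3. The 3 BPVB values of Mest lie between 14.9 and 19.5, all above the sham values, whereas the groups of Plagl1 overlap.

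Mest (NCBI Gene 58827) encodes a protein of the alpha/beta hydrolase family and is expressed from the paternal allele in mesodermal tissue. Its FPKM was 15.3, 19.5 and 14.9 in the 3 BPVB rats, against 10.5, 7.35 and 9.50 in the 3 sham rats. Every BPVB value lay above every sham value, with BPVB replicate 2 the highest and sham replicate 2 the lowest. The means were 16.6 ± 2.5 (SD, n = 3) and 9.13 ± 1.6 (SD, n = 3). This amounted to a log2 fold change of 0.83 ± 0.14 (SE, adjusted p = 0.0019, limma). It stayed between 0.69 and 0.94 over 16 alternative fits and had an adjusted p under 0.05 in all 16. Of all genes tested, 94.9% had a smaller absolute log2 fold change than Mest.

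Peg3 (NCBI Gene 103691034), a paternally expressed gene for a zinc-finger protein, had 13.9, 13.5 and 13.9 FPKM with BPVB against 11.9, 12.1 and 12.4 with sham surgery. The groups did not overlap, and the values within each group lay close together. On the log2 scale the difference was 0.17 ± 0.05 (SE, adjusted p = 0.035, limma), which is a 1.13-fold difference of the mean FPKM. The call was lost with each of the 6 libraries left out in turn (adjusted p from 0.057 to 0.093). It was also lost after median of ratios scaling (0.060), after quantile normalization (0.057) and with the replicate number as a block (0.069). In the reference annotation an antisense gene, Apeg3, overlaps Peg3. The strand setting of the counting is not given in the sources used here, so fragments of the pair cannot be told apart.

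The promoters of both genes are shown because Mest and Peg3 are the paternally expressed genes that passed the threshold, and that of Ndn because it lay on the other side. Each line holds the 250 bases before the start of the gene (RefSeq, GRCr8), 5′ to 3′ on the plus strand. Capitals mark matches, on either strand, to GGGGCCCC (a sequence bound by the PLAGL1 protein), to TGACGTCA (the cAMP response element), to CCAAT and to TATAAA.
Mest, chr4:60321564-60321813: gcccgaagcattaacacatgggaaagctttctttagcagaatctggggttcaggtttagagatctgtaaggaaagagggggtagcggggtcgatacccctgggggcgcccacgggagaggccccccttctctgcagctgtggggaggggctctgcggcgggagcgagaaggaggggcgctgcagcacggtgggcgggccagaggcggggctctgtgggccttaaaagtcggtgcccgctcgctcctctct
Peg3, chr1:76130744-76130993: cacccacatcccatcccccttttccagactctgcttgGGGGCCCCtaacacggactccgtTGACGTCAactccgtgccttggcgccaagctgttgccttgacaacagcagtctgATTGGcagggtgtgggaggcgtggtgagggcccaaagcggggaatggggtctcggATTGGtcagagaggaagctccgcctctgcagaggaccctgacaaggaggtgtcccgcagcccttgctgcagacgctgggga
Ndn, chr1:125260809-125261058: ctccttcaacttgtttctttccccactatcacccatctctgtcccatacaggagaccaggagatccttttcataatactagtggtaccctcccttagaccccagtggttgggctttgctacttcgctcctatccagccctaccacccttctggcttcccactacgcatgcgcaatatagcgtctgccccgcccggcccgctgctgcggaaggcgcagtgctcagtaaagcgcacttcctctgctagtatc
The Peg3 window held GGGGCCCC starting 213 bases and TGACGTCA starting 190 bases before the start, and CCAAT in the reverse direction at 136 and 81 bases. Of all 33469 promoters of this length in the reference, 0.753% held GGGGCCCC, 1.59% TGACGTCA, 34% CCAAT and 12.9% TATAAA. The windows of Mest, Ndn, Dlk1, Plagl1 and Grb10 held none of these 4 sequences, and none of the matches overlapped another. All 6 windows were richer in CpG than the median promoter, which had 5 CpG dinucleotides. Dlk1 had 41, Grb10 38, Plagl1 23, Mest 15, Peg3 11 and Ndn 10. Matches of letters are given as a description, and neither binding nor methylation was measured. Cdkn1c has no entry among these promoters.

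Cdkn1c (NCBI Gene 246060) encodes p57KIP2, an inhibitor of cyclin-dependent kinases, and is expressed from the maternal allele. Its FPKM was 5.03, 6.08 and 6.96 with BPVB against 4.71, 4.40 and 4.72 with sham surgery. The groups did not overlap, and the BPVB libraries were spread more widely than the sham libraries, with BPVB replicate 1 near the sham range. The means were 6.02 ± 0.96 and 4.61 ± 0.18 (SD, n = 3 each). Its log2 fold change came to 0.34 ± 0.11 (SE, adjusted p = 0.049, limma), just inside the threshold. It was outside the threshold in 11 of 16 alternative fits, among them those without BPVB replicate 2 (adjusted p = 0.12), BPVB replicate 3 (0.15), sham replicate 1 (0.095), sham replicate 2 (0.13) and sham replicate 3 (0.091), and it was 0.013 without BPVB replicate 1. The direction was the same in all of them, with log2 fold changes from 0.24 to 0.46.

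Dlk1 (NCBI Gene 114587) encodes a membrane protein related to the ligands of Notch, is paternally expressed and is known as a brake on adipocyte differentiation. It was the least abundant of the 7, with 0.323, 0.526 and 0.567 FPKM with BPVB against 0.0824, 0.234 and 0.296 with sham surgery. The BPVB values all lay above the sham values, although BPVB replicate 1 and sham replicate 3 were close. Behind them were 22, 35 and 43 fragments in the BPVB group and 5, 14 and 18 in the sham group. The BPVB mean was 2.31 times the sham mean, the largest ratio among the 7 genes. On log2(FPKM + 0.5), where the added 0.5 lowers the fold change of such a low gene, the difference was 0.47 ± 0.18 (SE, adjusted p = 0.075, limma). It was 1.32 by limma-voom on the fragments, and the adjusted p was between 0.053 and 0.21 in all 15 alternative fits that could include the gene. At this depth the difference did not pass the threshold.

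Plagl1 (NCBI Gene 25157), a paternally expressed zinc-finger transcription factor regarded as a hub of the network, had 1.48, 1.35 and 1.48 FPKM with BPVB against 1.43, 1.34 and 0.822 with sham surgery. The groups overlapped, and sham replicate 3 stood below the other 5 libraries. The difference on the log2 scale, 0.21 ± 0.16 (SE), was not called (adjusted p = 0.36, limma). Without sham replicate 3 it was 0.04. In the reference, the uncharacterized gene LOC134484946 overlaps Plagl1.

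Ndn and Grb10 lay on the other side. Ndn (NCBI Gene 308690) encodes necdin, a growth suppressor of the MAGE family, and is paternally expressed. Its FPKM was 7.35, 8.94 and 7.09 with BPVB against 9.99, 9.49 and 9.05 with sham surgery. The groups did not overlap, and BPVB replicate 2 was close to the lowest sham value. For Ndn this gave a log2 fold change of -0.28 ± 0.09 (SE, adjusted p = 0.052, limma). It passed the threshold in 4 of 16 alternative fits, which were those without BPVB replicate 2 (log2 fold change -0.37, adjusted p = 0.011), with genes below a mean FPKM of 1 left out (0.043), after median of ratios scaling (0.038) and after quantile normalization (0.036).

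Grb10 (NCBI Gene 498416) encodes an adaptor protein that binds the insulin and IGF1 receptors and dampens their signal, and it is maternally expressed in most tissues. It was the most abundant of the 7, with 30.6, 29.2 and 29.9 FPKM with BPVB against 32.8, 32.8 and 31.6 with sham surgery. The groups did not overlap, and they differed by a small margin. The difference on the log2 scale was -0.12 ± 0.04 (SE, adjusted p = 0.065, limma), and it ranged from -0.14 to -0.08 over 16 alternative fits. The adjusted p was under 0.05 in 3 of them, at 0.027 after median of ratios scaling, 0.046 after quantile normalization and 0.0089 by limma-voom on the fragments.

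In 6 of the 7 genes the 3 values of one group lay on one side of the 3 values of the other. Of these, 4 were higher and 2 lower in the BPVB group. Such separation was seen in 45.6% of all genes tested, 25.2% higher and 20.5% lower. Paternally and maternally expressed genes were found on both sides. Of the paternally expressed genes, Dlk1, Mest, Peg3 and Plagl1 had a log2 fold change above 0 and Ndn below 0, and of the maternally expressed genes Cdkn1c lay above and Grb10 below. The direction of each of the 7 was the same in every alternative fit that included it. The data do not resolve the parental alleles. In bulk tissue, fewer cells of a type and less RNA per cell cannot be told apart.

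**Figure D2:**
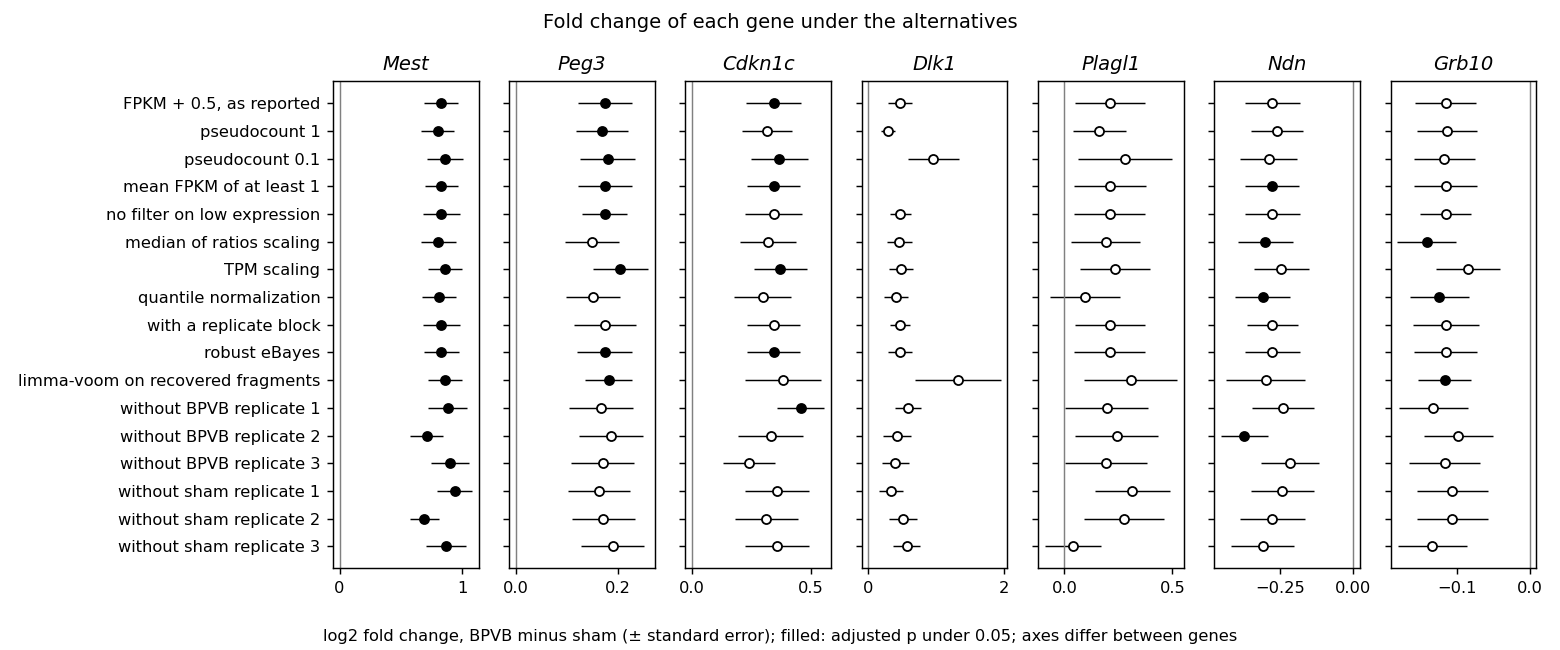
Log2 fold change (BPVB minus sham, with its standard error) of each of the 7 genes under the reported setting and 16 alternatives (15 for Dlk1, which is below the filter at a mean FPKM of 1). Filled points have an adjusted p under 0.05. Mest is filled in every setting, and Dlk1 and Plagl1 in none. No point crosses 0, although the error bar of Plagl1 does without sham replicate 3 and after quantile normalization.

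FPKM is scaled by gene length, so the levels of the genes can be ordered. In the sham group the order of mean FPKM was Grb10 (32.4), Peg3 (12.1), Ndn (9.51), Mest (9.13), Cdkn1c (4.61), Plagl1 (1.2) and Dlk1 (0.204). Ndn and Mest overlapped, and all other neighbors in the order were apart in all 3 libraries. In the BPVB group Mest (16.6) stood above Peg3 (13.8) and Ndn (7.79), and no neighbors overlapped. The ratio of Mest to Peg3 was 1.10, 1.44 and 1.07 with BPVB against 0.884, 0.608 and 0.765 with sham surgery. The ratio of Mest to Ndn was 2.08, 2.18 and 2.10 with BPVB against 1.06, 0.775 and 1.05 with sham surgery. The ratio of Mest to Gpc3, a growth gene described further on, was 0.181, 0.223 and 0.184 after banding and 0.319, 0.216 and 0.296 after the sham operation, and these ranges overlapped. A difference in library scaling leaves such ratios within a library unaltered.

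The SD between the rats of a group was set beside the spread that counting fragments would give, as a description with no test. The SD of Peg3 was 1.51% of the mean in the BPVB group and 2.01% in the sham group, beside 1.72% and 1.98% expected from counting fragments alone. For Mest it was 15.3% and 17.8%, beside 4.04% and 5.85% expected. Cdkn1c had 16.0% in the BPVB group and 3.91% in the sham group, beside 5.40% and 6.68%. For Plagl1 the sham group had 27.4%, beside 8.53% expected. Dlk1 had the widest spread, 27.7% in the BPVB group and 53.8% in the sham group, with 17.3% and 28.5% expected. The counting expectation treats fragments as independent molecules, which is not known here.

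**Figure D3:**
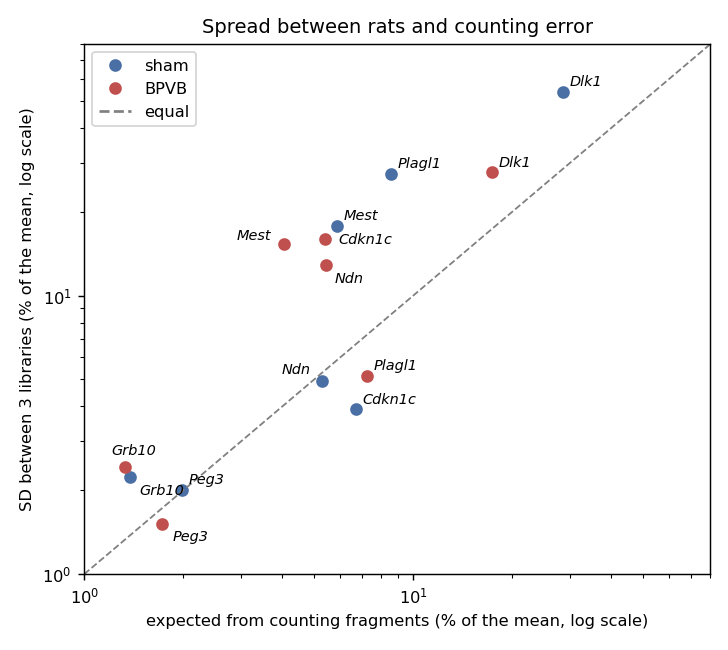
SD between the 3 libraries of a group against the spread expected from counting fragments, both in percent of the mean on log axes, for each gene and group. The dashed line marks equality. Peg3 lies near the line in both groups, and both groups of Mest, Dlk1 and Grb10, the sham group of Plagl1 and the BPVB groups of Cdkn1c and Ndn lie above it.

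Over the 6 libraries, the 5 genes (among those averaging 10 FPKM or more) whose values on log2(FPKM + 0.5) followed Mest most closely were Cers2 (Pearson r = 0.997), Cyb5r3 (0.994), Nedd4 (0.993), Map7d1 (0.990) and Zdhhc9 (0.989). Of 5946 genes compared, 510 had an r of at least 0.9, and the 6 points share the division into groups. Cers2, a ceramide synthase gene, had 28.9, 32.3 and 28.7 FPKM with BPVB against 24.9, 21.7 and 24.6 with sham surgery. As with Mest, replicate 2 was the highest in the BPVB group and the lowest in the sham group.

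Imprinted genes lie in domains, and the members were set beside the other imprinted genes of their domains. Mest passed the threshold and Copg2, next to it, did not (log2 fold change 0.04, standard error 0.07). In the Peg3 domain, the maternally expressed Zim1 rose from 0.32 to 1.2 mean FPKM (log2 fold change 1.06, standard error 0.19, adjusted p = 0.0026, limma, and 1.97 by limma-voom on the fragments), while Usp29 had a log2 fold change of -0.20 (standard error 0.15, adjusted p = 0.36). In the Cdkn1c domain, Tssc4 was higher (0.27, adjusted p = 0.021), Cd81, a tetraspanin gene, was lower (-0.08, adjusted p = 0.031), and Kcnq1 (-0.20, adjusted p = 0.14) and Slc22a18 (-0.08, adjusted p = 0.67) did not pass. The call of Tssc4 was lost without BPVB replicate 3 (0.071), sham replicate 2 (0.061) or sham replicate 3 (0.064). That of Cd81 was lost with any of the 6 libraries left out (adjusted p from 0.053 to 0.11) and under TPM scaling (0.15), and after quantile normalization its log2 fold change turned to 0.01 (0.71). In the Ndn domain none of Mkrn3, Snrpn, Snurf and Ube3a passed, with adjusted p from 0.53 to 0.99, and Ddc, next to Grb10, had a log2 fold change of 0.05 (adjusted p = 0.71). Rtl1 and Dio3 of the Dlk1 domain were too low to be tested. The neighbors of a member thus did not share its direction throughout, and differences between members and their neighbors were not tested. Among the nearest 2 tested genes on each side of the 7 members, imprinted or not, 4 of 28 were higher (Stx11, Zim1, Tssc4 and Cobl) and 1 was lower (Dync1h1), with an adjusted p under 0.05, beside 17.2% higher and 14.3% lower among all genes tested. Dync1h1 lost its call with any of the 6 libraries left out (adjusted p from 0.062 to 0.14).

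**Figure D4:**
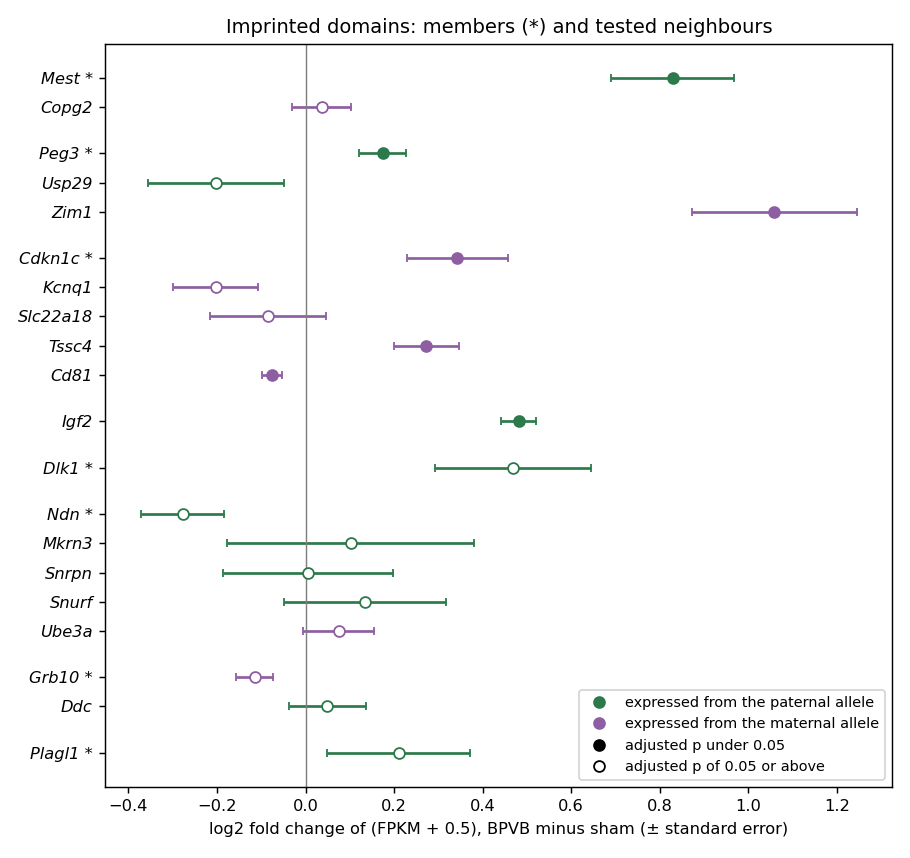
Log2 fold change (BPVB minus sham, with its standard error) of the members, marked with an asterisk, and of the tested imprinted genes of their domains, with Igf2 of the H19 domain. Filled points have an adjusted p under 0.05, and colors give the allele listed as expressed in rodents. The listing was not checked for this tissue or age, and these data do not resolve the alleles. Mest (0.83) and Zim1 (1.06) lie farthest to the right, Ndn (-0.28) farthest to the left.

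Of 38 other genes imprinted in rodents, 34 had a row and 28 were tested. At the same threshold 6 passed as higher, 4 passed as lower and 18 did not pass, beside 17.2% higher and 14.3% lower (31.5% in all) among all genes tested. Their median log2 fold change was 0.01, and that of all genes 0.02. Igf2, the fetal growth factor of the insulin family, rose from 33.1, 31.6 and 33.3 FPKM in the sham libraries to 44.9, 46.7 and 45.9 in the BPVB libraries (log2 fold change 0.48, standard error 0.04, adjusted p = 3.1e-05, limma). Igf2r, which binds IGF2 and carries it to degradation, rose with a log2 fold change of 0.40 (standard error 0.04, adjusted p = 8.3e-05). The ratio of Igf2r to Igf2 was 0.852, 0.789 and 0.823 with BPVB against 0.870, 0.894 and 0.837 with sham surgery, and these ranges overlapped. Nap1l5 (0.89, adjusted p = 0.0012) was also higher, as was Nnat, the neuronatin gene (0.33, adjusted p = 0.014), whose call was lost without BPVB replicate 3 (0.054). Gnas, which encodes the stimulatory G protein subunit, was lower (-0.19, adjusted p = 0.0011). The other lower genes were Cd81, named above, and Ppp1r9a (-0.48, adjusted p = 0.020) and Asb4 (-0.61, adjusted p = 0.042), the last pair with a mean under 1 FPKM and log2 fold changes of -0.83 and -1.16 by limma-voom on the fragments. The call of Ppp1r9a was lost without BPVB replicate 1 (0.055), sham replicate 1 (0.068) or sham replicate 2 (0.050), and that of Asb4 without BPVB replicate 3 (0.091), sham replicate 1 (0.12), sham replicate 2 (0.076) or sham replicate 3 (0.080), and also by limma-voom (0.090), with a pseudocount of 0.1 (0.058) and with no filter (0.059). Sgce (-0.13, adjusted p = 0.19) and Peg10 (-0.15, adjusted p = 0.47), which share a domain, did not pass. Without sham replicate 3 the adjusted p of Sgce was 0.030.

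Among 13 genes that are not imprinted and are also known to be turned down in growing organs after birth, 12 had a row and 10 were tested. Of these, 3 passed as higher and 0 as lower (limma, adjusted p under 0.05, beside 17.2% and 14.3% of all genes tested), and 6 had an unadjusted p below that limit, which 42% of all genes tested had. The median log2 fold change was 0.31. Gpc3, which encodes a glypican that restrains growth, rose from 33.1, 34.0 and 32.1 FPKM in the sham libraries to 84.6, 87.4 and 81.0 in the BPVB libraries. Its log2 fold change of 1.34 (standard error 0.04, adjusted p = 9.5e-08, limma) was larger than that of any of the 7 members. Hmga1, an architectural chromatin gene, rose by 0.85 (adjusted p = 1.7e-04) on the log2 scale. Sox11, a transcription factor gene, rose from 0.104, 0.0422 and 0.187 FPKM (5, 2 and 9 fragments) in the sham group to 0.445, 0.797 and 1.21 (24, 42 and 73 fragments) after banding. The log2 fold change of Sox11, 1.07 (adjusted p = 0.0059, limma), is lowered by the added 0.5, and it was 2.09 with a pseudocount of 0.1 and 2.87 by limma-voom on the fragments, above the 1.35 of Gpc3 under both. For the other tested genes of the list no difference passed.

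Of 22 genes for partners and targets of the members, 7 passed as higher and 3 as lower, where 17.2% of all genes tested were higher and 14.3% lower. Igf2 is among these 7 and was also counted with the other imprinted genes. The median log2 fold change of the 22 was 0.02. The genes that encode the receptors which GRB10 binds did not pass. Insr had a log2 fold change of 0.01 (standard error 0.07), with the sign turned after median of ratios scaling, after quantile normalization and without BPVB replicate 1, sham replicate 1 or sham replicate 2, and Igf1r had 0.14 (standard error 0.12). Of their substrate genes, Irs2 was higher (0.50, adjusted p = 0.0041) and Irs1 did not pass (0.11, adjusted p = 0.45). Cdkn1a, which encodes p21, a CDK inhibitor of the family of p57KIP2, rose from 4.93, 5.13 and 4.92 FPKM in the sham libraries to 30.7, 32.4 and 29.2 in the BPVB libraries (log2 fold change 2.51, standard error 0.06, adjusted p = 2.1e-08, limma). Fst, the follistatin gene, was higher (0.65, adjusted p = 0.0015). Notch1 was lower (-0.44, adjusted p = 8.1e-04), as were Cdk4 (-0.21, adjusted p = 0.016) and Ccne1 (-0.69, adjusted p = 0.017). Ccnd1, also in the list, was higher (0.18, adjusted p = 0.024), and its alternative fits were not compared. The call of Cdk4 was lost without BPVB replicate 1 (0.052), and that of Ccne1, whose log2 fold change was -1.57 by limma-voom, without BPVB replicate 3 (0.055), sham replicate 1 (0.052) or sham replicate 3 (0.061).

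Markers of several cell types moved with the groups as well, and their part in the results on the imprinted genes was not tested. Proliferation markers were higher in 6 of 6 genes, and their summed FPKM was between 37.1 and 38.3 with BPVB against between 14.03 and 16.27 with sham surgery. Alveolar type 2 markers were higher in 6 of 6, with sums of 529 to 580 against 52.4 to 55.2. All 5 measured macrophage markers were higher (617 to 644 against 185 to 191). Of 8 fibroblast markers, which mark cells in which imprinted growth genes are commonly expressed, 5 were higher and 2 lower (5773 to 5797 against 5195 to 5212). Neuron and chromaffin markers, of cells in which Ndn is known to be abundant, were lower in 6 of 8 tested genes (6.40 to 8.33 against 28.3 to 29.8), and Chat and Slc18a3 were at 0 in all BPVB libraries. Schwann cell markers were lower in 5 of 5 (125.6 to 129.3 against 215.2 to 215.5).
Smooth muscle markers were lower in 4 of 5 (3805 to 3852 against 4139 to 4219), endothelial markers in 4 of 6 (951 to 966 against 1059 to 1064), and atrial myocardial markers in 5 of 6 with 1 higher (13493 to 13920 against 18086 to 18442). These markers of the vein wall and its myocardial sleeve were expressed in every library, and the numbers of the cells were not measured. Pericyte markers were split, with 1 of 5 higher and 1 lower (756 to 775 against 849 to 866). Adipocyte markers had 3 of 6 higher and 1 lower (1308 to 1350 against 1309 to 1323). Most of that sum was Fabp4 (0.998-fold), while Adipoq (2.98-fold), Plin1 (4.43-fold) and Cidec (3.39-fold) were the higher ones. Of 4 measured adipocyte progenitor markers, a type in which Dlk1 is known, 1 was higher (24.6 to 26.9 against 21.6 to 24.6). Mesothelial markers were lower in 2 of 3 tested genes (1.24 to 1.58 against 2.76 to 4.16). Airway epithelial markers had 1 of 2 tested genes higher and 1 lower (104 to 118 against 136 to 143), which were Scgb1a1 (6.24-fold) and Tppp3 (0.63-fold). Foxj1 and Scgb3a2 were at 0 in all BPVB libraries and in all but 1 sham library each, with 1 fragment there. Skeletal muscle markers had 1 of 3 higher and 1 lower (505 to 528 against 711 to 722), both of which the heart also expresses, and Myog was at or below 0.186 FPKM in every library.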

How the data were processed

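Bulk RNA-seq of the PVs of 3 BPVB and 3 sham rats was used, with groups and replicate numbers from the sample labels. The authors deposited a table with an FPKM for every gene in each of the 6 rats. The paper describes trimming (fastp), mapping (HISAT) and counting (HTSeq-count). The submitters' processing notes list HISAT2 2.0.5, StringTie 1.3.3b, featureCounts 1.5.0-p3 and DESeq2 1.20.0. The sources thus name different counting tools, and which of them gave the table is not known. The genome build, the annotation version and the strand setting are not given in the sources used here, and the labels and the methods name different library kits. The deposited table lacks depth, so fragments, library totals and gene lengths were worked out from FPKM values that stand in ratios of whole numbers. Whole numbers were found for 100% of genes (17833), within a tolerance of 1e-05. A gene with few fragments could hold a multiple of the number given.

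Groups were compared with limma 3.58.1 in R 4.3.3 (lmFit, eBayes with a trend), two-sided, on log2(FPKM + 0.5) for 15150 genes averaging 0.1 FPKM or more, with Benjamini-Hochberg adjustment. The count test of the study was not run, and limma-voom on the recovered fragments was used as an alternative. Tested on simulated data for BPVB against sham, the fit called 198 of 200 genes changed 4-fold and 1 unchanged gene among 14990 tested. A simulated gene counted as called only when it met both DEG limits of the study, a stricter rule than the one used for the members. The 4-fold changes were also larger than any difference among the members. The simulation therefore gives neither the rate of false calls nor the power for the calls made on the members. The members and the lists were chosen with earlier results of these data known. The text names every member, up to 3 rises and 3 falls of each other list of genes that passed, a few partners fixed by name (Igf2, Igf2r, Gpc3, Sgce, Peg10, Gnas, Insr and Igf1r, and Rian, which was not analysed here), and the 5 genes most like the member with the largest called change. Genes named as neighbors in a domain (Tssc4, Cd81, Kcnq1, Slc22a18, Usp29, Copg2, Ddc, Mkrn3, Snrpn, Snurf, Ube3a, Rtl1, Dio3) or next to a member were added after their values were seen, as were the marker genes Fabp4, Chat, Slc18a3, Foxj1, Scgb3a2 and Myog, the ratios of levels and the spread against counting error. Irs1 and Ccnd1 were also added after their values were seen. Neighbors were found by gene number in RefSeq (GRCr8), where 15026 tested genes and all 7 members matched. All other steps ran in Python 3.11.15 (pandas 2.3.3, matplotlib 3.10.9). Planned ratios of Dlk1 to Meg3 and of H19 to Igf2 were not computed, since Meg3 and H19 were not analysed here. The number of columns of per-sample values left unused was 0.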

Additional observations from a re-analysis of the deposited data

How the results depend on the processing

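The alternatives were 2 other pseudocounts, 2 other filters, 3 other scalings, a replicate block, robust eBayes, limma-voom on the recovered fragments and leaving out each library in turn. Mest kept its call in all of them. The number of members called higher was 3 as reported, 1 after median of ratios scaling, after quantile normalization and with the replicate block, and from 1 to 2 with 1 library left out. It was 2 with a pseudocount of 1, with no filter and by limma-voom. The number of members called lower was 0 as reported, 2 after median of ratios scaling and quantile normalization (Ndn and Grb10), 1 with genes below a mean FPKM of 1 left out, 1 by limma-voom, and from 0 to 1 with 1 library left out. Other imprinted genes called lower numbered 4, 2 with genes below a mean FPKM of 1 left out, where fewer genes are tested, and from 1 to 3 with 1 library left out. Those called higher ranged from 4 to 6 with 1 library left out. Postnatal growth genes called higher numbered 3, 5 under TPM scaling and by limma-voom, and from 3 to 4 with 1 library left out, and 1 was called lower after quantile normalization. Over all genes, 496 DEGs were found, 325 with a pseudocount of 1, 901 with a pseudocount of 0.1, 1056 by limma-voom and from 497 to 531 with 1 library left out. The log2 fold change of Insr, near 0, was -0.019 after median of ratios scaling and -0.026 after quantile normalization, and it ranged from -0.015 to 0.043 with 1 library left out, where BPVB replicate 1 (-0.0025), sham replicate 1 (-0.0084) and sham replicate 2 (-0.015) turned its sign. That of Cd81 was 0.012 after quantile normalization. Apart from the stated filter, the cause of these shifts was not tested. Scaling moved the median of all genes from -0.01 to 0.05 on the log2 scale. The replicate numbers do not pair the rats by any label, and the deviations of same-numbered libraries correlated at 0.014 to 0.025, although 6 of 6 libraries correlated best with their own number. The replicate block left 4539 genes called, beside 4775 without it. Among the members, depth limits Dlk1 most, with 5 to 43 fragments per library. The planned ratios with Meg3 and H19 were not run. Beyond leaving out each library in turn, no outlier test was run.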
